A study of Mus musculus with 12 samples.

Results

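The 8 genes described here were chosen because their levels were lower in untreated C17.2b cells than in untreated C17.2a cells, and all 8 were found by symbol among the 12774 genes of the deposited table. C17.2 is a neural progenitor line from mouse. C17.2a stably expressed a tagged thyroid hormone receptor alpha and C17.2b a tagged thyroid hormone receptor beta, and the labels do not say whether either line was 1 clone or how the receptor was driven. All cells spent 24 h in medium without serum. Then 6 h, 12 h or 24 h passed with T3, the thyroid hormone triiodothyronine, at 1e-07 M or with none added. There was 1 library for each line, treatment and time, so the 12 libraries hold no replicate within a group, the 3 times of a line served as repeats, and any p-value measures the spread between these libraries only.

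Ogn, Mfap5, Wisp2 and Pdgfrl encode proteins that are secreted into the matrix around cells. Osteoglycin (Ogn) is a small leucine-rich proteoglycan that binds collagen, Mfap5 is a glycoprotein of fibrillin microfibrils, Wisp2 (now Ccn5) is a matricellular protein of the CCN family, and Pdgfrl is a soluble protein that resembles the outer part of the platelet-derived growth factor receptor. Plb1 is a membrane-bound phospholipase, and Rtn4rl1 is a surface protein related to the Nogo receptor, which binds myelin inhibitors of axon growth. S100a9 is a calcium-binding protein best known from neutrophils, where it pairs with S100a8 and can be released from the cell without a signal peptide. Vsnl1 is a neuronal calcium sensor that works inside the cell, so the description of the group as secreted and surface genes does not cover it.

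The deposited unit is RPM, in which tag numbers are scaled so that every library has the same total. Read from the smallest steps of the values, a library held 7.14e+06 to 1.91e+07 tags. A count of 3 tags, the floor used here, corresponded to 0.157 to 0.42 RPM. In bulk RNA like this, fewer cells with a gene on and less of its RNA per cell cannot be told apart. Across genes, the Spearman correlation of a T3 library with its untreated partner was 0.91 for the C17.2a 24 h pair. It was 0.966 to 0.98 for the other 5 pairs. The correlation does not tell which library of the C17.2a 24 h pair was unlike the rest. Fitted T3 responses in C17.2a are therefore given with and without that pair. Of 8 neural progenitor markers all 8 were measured, led by vimentin (Vim) at 1112.07 to 4940.95 RPM, with Nes at 70.23 to 641.71 RPM and Sox2 at 61.96 to 305.94 RPM. The summed level of that list was 1459.36 to 5854.98 RPM in C17.2a and 1439.82 to 5706.86 RPM in C17.2b. Single markers differed more, as Msi1 was at 0 to 4.35 RPM and Sox9 at 2.33 to 7.57 RPM. Untreated means of Fabp7 were 3.5 RPM in C17.2a and 16.6 RPM in C17.2b, while those of Cdh2 went the other way, at 133 and 93.1 RPM. Fibroblast markers, of which 7 of 8 were measured, summed to 5062.91 to 10922.74 RPM in C17.2a and 2814.15 to 6495.4 RPM in C17.2b. They were led by the collagens Col1a1 and Col3a1. The matrix gene Postn went the other way, with untreated means of 952 RPM in C17.2a and 1120 RPM in C17.2b and T3 means of 370 and 558 RPM. The surface marker Thy1 stayed at or below 0.41 RPM. The C17.2a range lay higher but overlapped that of C17.2b, and its part in the results below was not tested.

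The genes were divided at 1 RPM in C17.2b, a cut with no gap around it. In C17.2b Plb1 fell to 0.9 RPM untreated at 12 h, and Mfap5 reached 0.98 RPM with T3 at 24 h. A level under 1 RPM is not absence, as Mfap5 held 9 tags in untreated C17.2b at 6 h. Rtn4rl1, S100a9, Mfap5 and Vsnl1 stayed below 1 RPM in all 6 C17.2b libraries. Ogn, Pdgfrl and Wisp2 stayed above 1 RPM in all 6 and Plb1 in 5 of 6, so these 4 genes were lower but not lost in C17.2b.

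Start-site sequence was available for 4 of the 8 genes in a RefSeq table of build GRCm38.p6, and is shown for S100a9 and Ogn, whose untreated 24 h ratios between the lines were the highest and the lowest of the 8, at 273 (74.8 to 2240) and 4.04 (3.5 to 4.69, 95% exact binomial intervals for counting error), and for the calcium sensor Vsnl1. The S100a9 ratio rests on a C17.2b value under 3 tags, so its size is known only within that interval. Each line gives the 250 bases before the annotated start, 5′ to 3′ on the strand of the gene, with capitals for CG dinucleotides and for TATAAA on either strand. The windows are chr13:49607765-49608014 on the plus strand for Ogn, chr3:90695722-90695971 on the minus strand for S100a9 and chr12:11436579-11436828 on the minus strand for Vsnl1.
Ogn: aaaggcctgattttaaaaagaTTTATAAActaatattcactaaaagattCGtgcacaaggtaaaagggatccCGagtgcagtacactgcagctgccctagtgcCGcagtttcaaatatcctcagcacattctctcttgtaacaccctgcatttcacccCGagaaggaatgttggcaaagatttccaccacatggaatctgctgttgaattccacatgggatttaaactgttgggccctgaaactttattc
S100a9: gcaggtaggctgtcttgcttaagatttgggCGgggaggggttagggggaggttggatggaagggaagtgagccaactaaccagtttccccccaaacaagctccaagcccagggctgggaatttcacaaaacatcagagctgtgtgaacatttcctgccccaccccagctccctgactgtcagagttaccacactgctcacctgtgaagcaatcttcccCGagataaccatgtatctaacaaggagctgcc
Vsnl1: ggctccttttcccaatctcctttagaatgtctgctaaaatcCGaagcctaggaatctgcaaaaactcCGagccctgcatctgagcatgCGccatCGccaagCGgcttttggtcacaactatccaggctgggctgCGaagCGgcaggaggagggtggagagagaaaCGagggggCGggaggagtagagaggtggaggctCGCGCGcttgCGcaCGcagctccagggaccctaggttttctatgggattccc
Ogn held 4 CG dinucleotides and S100a9 held 2, against a median of 6 over 32851 such windows. Both Plb1 windows held 1, a count of 1 or fewer being found in 18.8% of all windows. The Vsnl1 window shown held 14, a count reached by 29.4% of all windows, and the other Vsnl1 window held 4. TATAAA was searched on both strands in the 300 bases from 250 before to 50 after the start, where 13.6% of all windows held it. It was present in Ogn, overlapping a match on the opposite strand, and in S100a9, where it began at the annotated start itself and so follows the bases shown. It was not in the Plb1 or Vsnl1 windows.

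Rtn4rl1 was at 34.48, 33.4 and 51.03 RPM at 6, 12 and 24 h in untreated C17.2a and at 0.21, 0.27 and 0.54 RPM in untreated C17.2b. S100a9 was at 15.46, 11.81 and 73.69 RPM in untreated C17.2a. In untreated C17.2b it was at 0.1 RPM at 6 h, listed as N/A at 12 h and at 0.27 RPM at 24 h. All untreated C17.2b values of S100a9 lay below the floor of 3 tags of their library, so a level of 0 was not told apart from a low one. At 12 h S100a9 was at least 43.7-fold higher in C17.2a, when the C17.2b library is set to that floor. Mfap5 was at 3.94, 7.55 and 23.27 RPM in untreated C17.2a and at 0.47, 0.18 and 0.41 RPM in untreated C17.2b. Vsnl1 was at 4.72, 6.48 and 5.61 RPM against 0.26, 0.09 and 0.41 RPM. For these 4 genes every untreated C17.2a library was above every untreated C17.2b library. The choice of the genes on these libraries favoured such a gap, and its share among all genes was not counted, so it supports nothing by itself.

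Ogn was at 141.64, 99.23 and 121.77 RPM in untreated C17.2a and at 19.75, 16.59 and 30.11 RPM in untreated C17.2b. Pdgfrl was at 68.66, 60.23 and 133.4 RPM against 8.01, 12.47 and 26.31 RPM. In both lines Pdgfrl was highest at 24 h. Wisp2 was at 29.46, 19.28 and 48.18 RPM against 1.57, 1.79 and 3.26 RPM, and Plb1 at 22.96, 22.39 and 15.11 RPM against 1.47, 0.9 and 1.76 RPM. The ratio of the means over the 3 times was 5.46 for Ogn, 5.61 for Pdgfrl and 14.6 for both Wisp2 and Plb1, and it was 117 for Rtn4rl1. These untreated values chose the genes and carry no test. In the same contrast 8.85% of 10192 genes had an adjusted p under 0.05 in limma, 5.92% with the lower level in C17.2b.

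**Figure D1:**
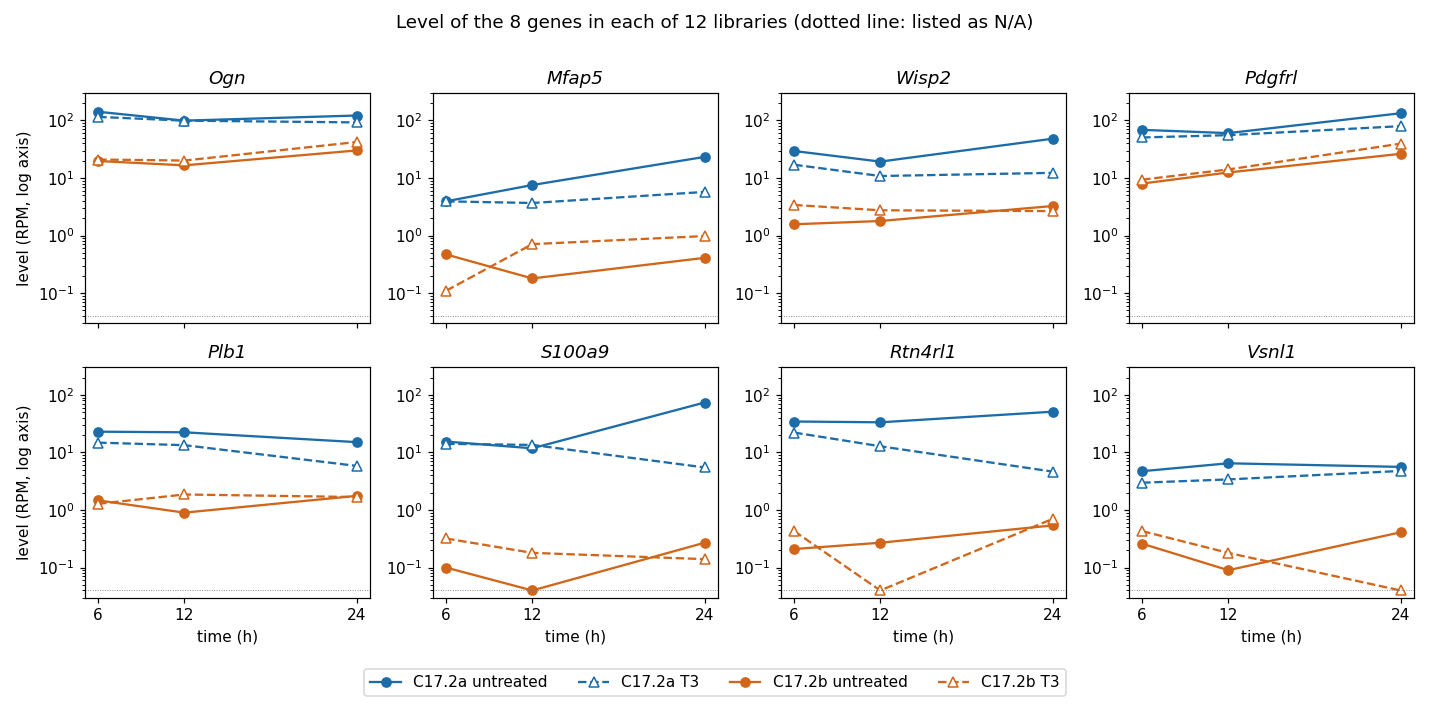
Level in RPM on a log axis against time in hours for each gene, with C17.2a in blue, C17.2b in orange, filled circles for untreated and open triangles for T3-treated cells, 1 library per point. In all 8 panels the blue points lie above the orange ones, an order that the choice of the genes favoured for the filled circles. Points on the dotted line are libraries where the gene is listed as N/A.

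The genes were chosen on the contrast of the untreated libraries, and the lines can be compared again in the T3-treated libraries. These libraries come from the same lines at the same times, so they are not a new sample of either line. The genes were also chosen with earlier results of these data known, so the T3-treated libraries cannot be called independent of the choice. All 8 genes were again lower in C17.2b, at every time and with no overlap between the 3 libraries of each line. Of 10142 genes tested 6.26% showed such a gap in this direction and 8.44% in the other. No gene of the 8 passed an adjusted p of 0.05 in limma, and 1 of 10142 genes (0.00986%) did, with 1486 at an unadjusted p under 0.05. All 8 genes passed the filter of at least 1 RPM in at least 3 libraries. Mfap5, S100a9, Rtn4rl1 and Vsnl1 did so through C17.2a alone, and the count of 8 therefore supports nothing by itself. The same limit holds for the p-values of Mfap5, S100a9, Rtn4rl1 and Vsnl1 that follow.

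With T3, S100a9 was at 14.11, 13.52 and 5.49 RPM at 6, 12 and 24 h in C17.2a and at 0.32, 0.18 and 0.14 RPM in C17.2b. Its log2 difference, C17.2b minus C17.2a on log2(RPM + 1), was -3.22 (SE 0.30, adjusted p 0.0541 in limma). Rtn4rl1 was at 22.16, 12.81 and 4.65 RPM in C17.2a and at 0.43 RPM, N/A and 0.7 RPM in C17.2b, with a log2 difference of -3.18 (SE 0.48, adjusted p 0.0781). The C17.2a levels of Rtn4rl1 spread widely in this set. At 24 h the ratio between the lines was 6.64, with a 95% interval of 2.62 to 21.6 from exact binomial counting error, against 51.5 (20 to 193) at 6 h. At 12 h it was 48.2 with the N/A set to 3 tags, and the lower limit from counting error was 38.8. Plb1 was at 14.81, 13.38 and 5.84 RPM against 1.28, 1.86 and 1.68 RPM (log2 difference -2.16, SE 0.33, adjusted p 0.0786).

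Ogn was at 115.2, 99.22 and 92.44 RPM in C17.2a and at 20.96, 20.1 and 42.19 RPM in C17.2b with T3, a log2 difference of -1.92 (SE 0.28, adjusted p 0.0717). Pdgfrl was at 50.59, 55.56 and 79.56 RPM against 9.36, 14.08 and 39.53 RPM, a log2 difference of -1.74 (SE 0.28, adjusted p 0.0858). The gap of both genes was narrowest at 24 h, with a ratio of 2.19 (1.92 to 2.52) for Ogn and 2.01 (1.75 to 2.33) for Pdgfrl. Wisp2 was at 17, 10.83 and 12.29 RPM against 3.4, 2.75 and 2.66 RPM, with a log2 difference of -1.85 (SE 0.22, adjusted p 0.0573) and ratios of 5, 3.94 and 4.62. Mfap5 was at 3.93, 3.68 and 5.73 RPM against 0.11, 0.71 and 0.98 RPM (log2 difference -1.79, SE 0.25, adjusted p 0.0658). Vsnl1 was at 2.98, 3.4 and 4.77 RPM against 0.43 RPM, 0.18 RPM and N/A (log2 difference -1.97, SE 0.28, adjusted p 0.0699), and was at least 11.4-fold higher in C17.2a at 24 h. For all 5 of these genes the lowest C17.2a library was above the highest C17.2b library.

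Under median-ratio scaling of the libraries the 8 adjusted p-values in limma were 0.03 for S100a9 to 0.0427 for Rtn4rl1, and 91 genes in all were called. The limit of the filter given above holds for the p-values of Mfap5, S100a9, Rtn4rl1 and Vsnl1 here and in the next fit. With the spread estimated from all 12 libraries, a choice made after seeing the data, the adjusted p ran from 0.00155 for Vsnl1 to 0.0213 for Mfap5 at the same log2 differences, and 489 genes were called. Without the 24 h libraries 4 of the 8 genes could be tested and all 4 passed (log2 difference -2.33 for Ogn, -1.85 for Wisp2, -2.11 for Pdgfrl and -2.56 for Plb1), along with 1573 genes in all, while the other 4 had too few libraries above 1 RPM. That fit had 1 residual degree of freedom and took its spread from the trend over all genes, so its p-values are not printed. Without the 6 h or without the 12 h libraries no gene passed. The direction was the same wherever a gene could be fitted. The size depended on the pseudocount, the value added to RPM before the log, most of all for genes at low levels. With a pseudocount of 0.5 and of 5, S100a9 had -3.92 and -1.57, Rtn4rl1 -3.81 and -1.64, Vsnl1 -2.61 and -0.74, and Mfap5 -2.24 and -0.75. Ogn changed less, with -1.94 and -1.77.

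**Figure D2:**
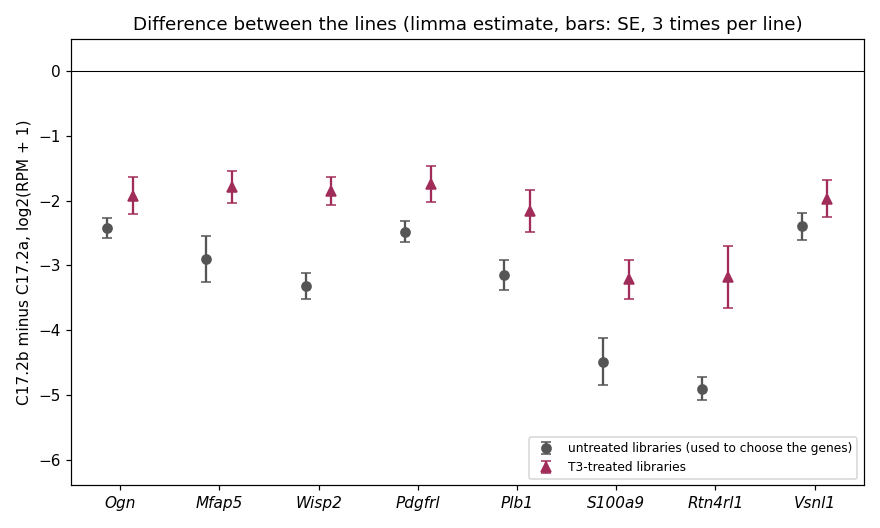
Difference between the lines for each gene, C17.2b minus C17.2a on log2(RPM + 1), as the limma estimate with its SE over 3 times per line, in untreated libraries (circles) and T3-treated libraries (triangles). All 16 estimates lie below 0, and the triangles lie nearer to 0 than the circles, by the most for Rtn4rl1 (-3.18 against -4.90). The untreated libraries chose the genes, so the signs of the circles were fixed by that choice. The step from circle to triangle is therefore not a measure of a T3 effect. Sizes of genes at low levels depend on the pseudocount, so the genes cannot be ranked by them.

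In C17.2a, 7 of the 8 genes were lower with T3 than without it at all 3 times, which 18.8% of 10577 genes were. The gap was 0.01 RPM for Ogn at 12 h and for Mfap5 at 6 h. The untreated libraries in this comparison also chose the genes, so the count supports nothing by itself. No gene of the 8 passed in limma, where 1.37% of 10577 genes were called, 0.463% as lower with T3. For Rtn4rl1, the Nogo receptor relative, T3 over untreated was 0.643 (0.545 to 0.757) at 6 h, 0.384 (0.32 to 0.459) at 12 h and 0.0911 (0.0641 to 0.127) at 24 h. Its log2 difference over the 3 pairs was -1.71 (SE 0.43, adjusted p 0.114 in limma), the lowest fitted value of the 8. Without the C17.2a 24 h pair it was -0.97 (SE 0.24) with an adjusted p of 0.0479, and 462 genes in all passed. Because its high untreated C17.2a level chose Rtn4rl1, that p is not independent evidence of a lower level with T3.

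The matricellular gene Wisp2 was at 0.577, 0.562 and 0.255 of its untreated level at 6, 12 and 24 h in C17.2a (log2 difference -1.14, SE 0.28, adjusted p 0.113 in limma). The phospholipase Plb1 was at 0.645, 0.598 and 0.386 of it (log2 difference -0.85, SE 0.22, adjusted p 0.13). Both genes were lower in each of the 3 pairs by more than the counting error, and without the 24 h pair they had -0.77 (SE 0.23) and -0.65 (SE 0.22). Mfap5 was at 0.997 of its untreated level at 6 h, 0.487 at 12 h and 0.246 at 24 h, and its log2 difference was -0.91 (SE 0.35, adjusted p 0.266), or -0.44 (SE 0.30) without the 24 h pair. S100a9 was near its untreated level at 6 h (0.913, 0.733 to 1.14) and 12 h (1.14, 0.91 to 1.44) and at 0.0745 (0.0541 to 0.1) of it at 24 h. Its log2 difference was -1.16 (SE 0.61, adjusted p 0.379), and 0.03 (SE 0.22) without the 24 h pair.

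In the 24 h pair of C17.2a, Mfap5, Wisp2, Plb1, S100a9 and Rtn4rl1, 5 of the 8 genes, were at least 2-fold lower with T3 on log2(RPM + 1), as were 18.3% of 10577 genes. Ogn, Pdgfrl and Vsnl1 had values nearer to 0 in C17.2a, with log2 differences of -0.23 (SE 0.15), -0.43 (SE 0.17) and -0.49 (SE 0.22) and adjusted p of 0.448, 0.275 and 0.312 in limma. Without the 24 h pair they had -0.15, -0.27 and -0.64.

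In C17.2b no gene of the 8 passed with T3 in limma, where 3.11% of 10577 genes were called, 2.25% as higher. Ogn and Pdgfrl were higher with T3 at all 3 times, which 28.2% of genes were, and 2.07% of genes were lower at all times in C17.2a and higher at all times in C17.2b. Ogn was at 1.06 (0.89 to 1.27), 1.21 (0.996 to 1.48) and 1.4 (1.17 to 1.67) times its untreated level, a log2 difference of 0.27 (SE 0.15, adjusted p 0.536 in limma). Pdgfrl was at 1.17, 1.13 and 1.5 times it, a log2 difference of 0.31 (SE 0.17, adjusted p 0.551). Wisp2 was at 2.17 (1.28 to 3.7) times its untreated level at 6 h and at 0.816 (0.423 to 1.56) at 24 h. Plb1 had a log2 difference of 0.14 (SE 0.22), and the 4 genes under 1 RPM had values from -0.07 for Vsnl1 to 0.21 for Mfap5, at levels where a lower value with T3 was not detectable at this depth.

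Taking the C17.2a response from the C17.2b response gave a value above 0 for all 8 genes, from 0.43 (SE 0.31) for Vsnl1 and 0.50 (SE 0.21) for Ogn to 1.47 (SE 0.40) for Wisp2 and 1.72 (SE 0.60) for Rtn4rl1. None passed in limma (adjusted p 0.722 for each), and 0% of 10577 genes did, with 583 at an unadjusted p under 0.05. The untreated libraries that chose the genes enter this difference too. Without the C17.2a 24 h pair it was 0.98 (SE 0.31) for Rtn4rl1, 1.10 (SE 0.30) for Wisp2 and 0.09 (SE 0.28) for S100a9. All genes tested had a median of 0.12 in this difference, which became -0.01 under median-ratio scaling.

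**Figure D3:**
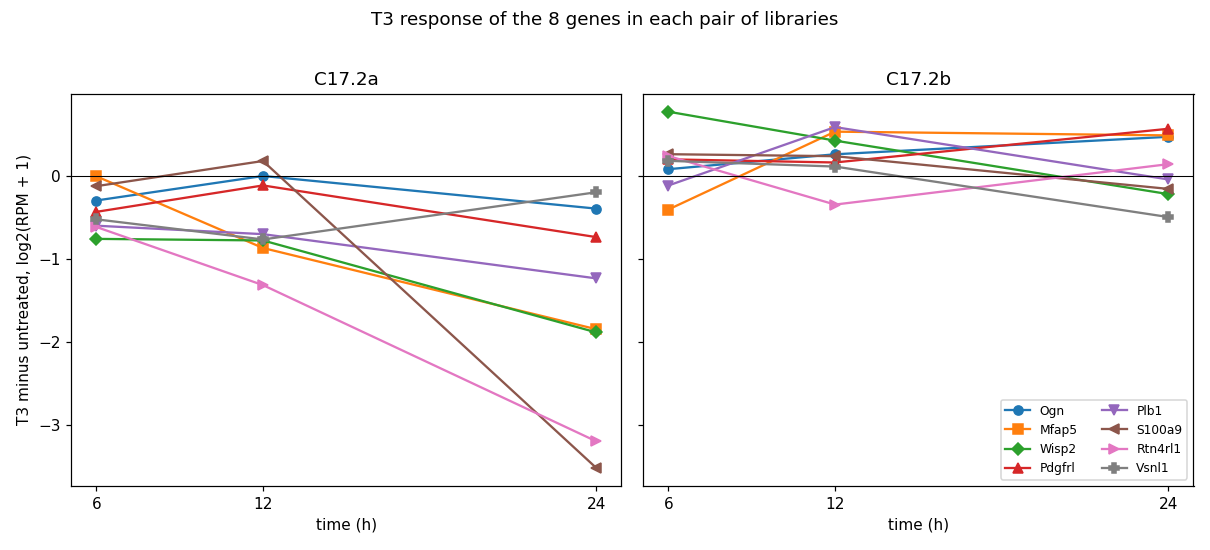
T3 minus untreated on log2(RPM + 1) for each gene and pair of libraries against time in hours, C17.2a on the left and C17.2b on the right, 1 pair per point. In C17.2a S100a9 and Rtn4rl1 lie at -3.53 and -3.20 at 24 h, while all points of C17.2b lie between -0.50 and 0.78.

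Time in C17.2a was compared over its 6 libraries with treatment as a block. None of the 8 genes passed in limma at 24 h against 6 h, where 18% of 10141 genes were called, 4.03% as lower. Mfap5 (log2 difference 1.37, SE 0.47, adjusted p 0.0906) and Pdgfrl (0.80, SE 0.24, adjusted p 0.0723) had values above 0, and Plb1 a value below 0 (-0.89, SE 0.29, adjusted p 0.0815). All genes tested had a median of 0.32, which became -0.03 under median-ratio scaling, and Plb1 then passed at -1.25 (adjusted p 0.0399), while Pdgfrl was at 0.41 (adjusted p 0.297). Mfap5 ranged from 0.67 without the untreated 24 h library to 2.08 without the T3 24 h library. S100a9 (0.48, SE 0.88) and Rtn4rl1 (-0.74, SE 0.60) had the widest errors of the 8. For S100a9 the sign turned with the 24 h library that was kept, being 2.26 without the C17.2a T3 24 h library and -1.29 without the untreated one. Each of these fits had a single 24 h library, assumed to vary like the other groups, and 1 residual degree of freedom, so no p-value or call is given from them. The untreated libraries in this comparison also chose the genes.

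The relatives of the 8 genes were taken from lists of their families, chosen by name, and Dcn and Pdgfra among them are also fibroblast markers. Of 102 other family members 78 were in the table and 52 could be tested with T3. None passed in limma, and 8 had all C17.2b libraries below all of C17.2a against 3 above, with a median log2 difference of 0 beside 0.07 for all genes. Of all 10142 genes 6.26% lay below in this way and 8.44% above. The relatives of Ogn included asporin (Aspn), a collagen-binding proteoglycan, at 2.58, 2.9 and 3.22 RPM in C17.2a and at 0.11 RPM, 0.27 RPM and N/A in C17.2b (log2 difference -1.80, SE 0.24, adjusted p 0.0594). Decorin (Dcn), another such proteoglycan, was at 1.49, 3.82 and 7.28 RPM against 0.43, 1.15 and 5.61 RPM, with overlap, and Prelp had a log2 difference of -0.42 (SE 0.30).

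All 3 tested CCN relatives of Wisp2 had negative values: the growth factor-induced gene Ctgf at -1.55 (SE 0.17, adjusted p 0.0541 in limma), Cyr61 at -0.88 (SE 0.44) and Wisp1 at -0.61 (SE 0.16). Ctgf was at 30.61, 29.51 and 67.75 RPM in C17.2a and at 10.21, 8.94 and 22.57 RPM in C17.2b, without overlap. Of 12 microfibril and elastic fibre genes beside Mfap5, the collagen and elastin cross-linking enzyme Loxl1 had -1.41 (SE 0.22) and its relative Loxl3 0.89 (SE 0.27), and fibrillin (Fbn1) had -0.73 (SE 0.21). The median of that list was -0.04. Of the growth factor family of Pdgfrl, the receptor Pdgfra had -1.25 (SE 0.23), the ligand Pdgfc -0.71 (SE 0.18) and the receptor Pdgfrb 0.59 (SE 0.32). The median of the 5 tested genes of that family was -0.10.

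The Nogo receptor list had a median of 0.47 over 5 tested genes: Rtn4r, the Nogo receptor itself, was at a mean of 1.8 RPM in C17.2a and 3.41 RPM in C17.2b (log2 difference 0.47, SE 0.40), and the co-receptor Ngfr and its relative Tnfrsf19 had 0.86 (SE 0.18) and 0.93 (SE 0.34). Over 7 tested S100 genes the median was -0.33, with S100a4 at -0.55 (SE 0.18), S100a11 at -0.61 (SE 0.21) and S100a1 at 0.83 (SE 0.40). S100a8, the partner of S100a9, stayed at or below 0.41 RPM in all 12 libraries. Over 12 phospholipase genes the median was 0.06, with Pla2g16 at -1.19 (SE 0.23), Pnpla7 at 0.72 (SE 0.22) and Pla2g7 at 0.51 (SE 0.23). The 3 tested calcium sensors, Hpcal1, Ncald and Ncs1, had -0.41 (SE 0.24), 0.57 (SE 0.24) and 0.59 (SE 0.52).

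**Figure D4:**
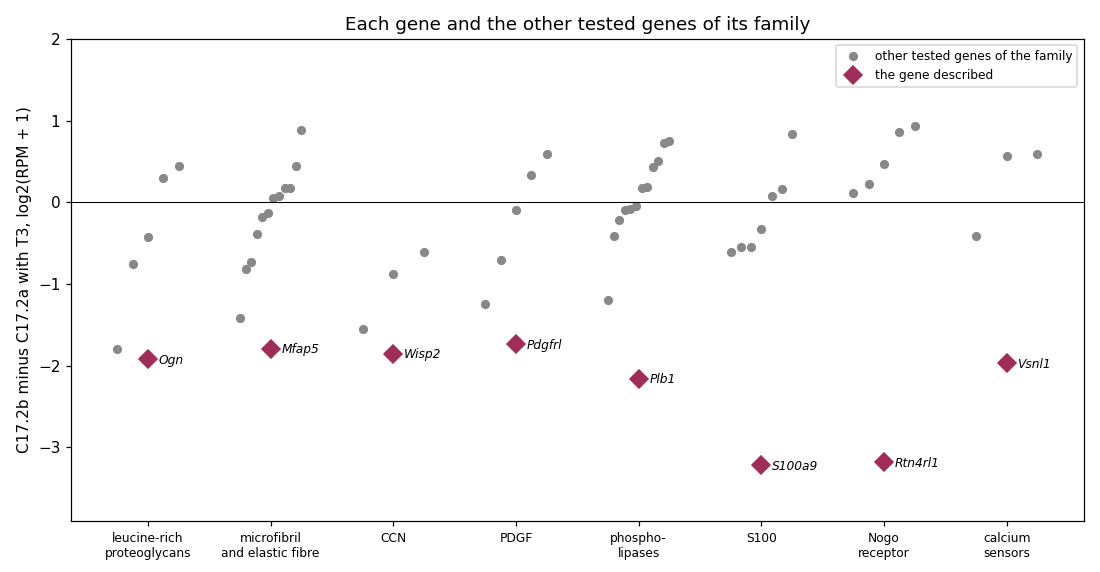
Difference between the lines with T3, C17.2b minus C17.2a on log2(RPM + 1), for each of the 8 genes (diamonds) and the other tested genes of its family (grey points). The grey points lie between -1.80 and 0.93, on both sides of 0 in 6 of 8 families, above it for the Nogo receptor list and below it for the CCN list.

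Among the 58 relatives tested for T3, S100a10 was lower with T3 in both lines (-0.76, SE 0.14 and adjusted p 0.0468 in C17.2a, -0.89, SE 0.14 and adjusted p 0.0148 in C17.2b, limma). The calcium sensor Ncald was lower in C17.2a (-1.17, SE 0.21, adjusted p 0.0413). The ligand Pdgfb (1.39, SE 0.27, adjusted p 0.0353) and Tnfrsf19 (1.49, SE 0.29, adjusted p 0.0328) were higher in C17.2b. The remaining relatives did not pass in either line. The relatives were not refitted under the alternatives.

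Genes most like the 8 over all 12 libraries were found by the Pearson correlation of their log2(RPM + 1) values with the mean standardised profile of the 8, among 10577 genes. The libraries of a line share their cells, so the values are a description. Aspn and Tnfrsf9, a receptor of the tumour necrosis factor family, had r = 0.96, followed by the BMP antagonist Chrdl1 (0.96), the cytokine Tslp (0.96), the matrix protein Ccdc80 (0.95), Pla2g16 (0.95) and the secreted protein Srpx2 (0.95). Chrdl1 was at a mean of 9.93 RPM in untreated C17.2a and 2.01 RPM in untreated C17.2b, and Tslp at 10.1 and 2.16 RPM. The 8 genes themselves had r of 0.92 for Pdgfrl to 0.98 for Wisp2 with the profile that they form.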

How the data were processed

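Digital gene expression libraries of reverse-transcribed polyA RNA were made from 2 C17.2 lines, 12 libraries in all. The authors deposited RPM per gene symbol, a unit read from the values because all columns have the same sum within rounding. The build mm9 comes from the submitters' processing notes. How tags were aligned, assigned and filtered is not given in the sources used here. N/A was read as 0. Between 88.6% and 93.1% of values under 1 RPM were whole multiples of the step of their library (tolerance 0.0055 RPM), which fell short of nearly all, and a count test was not used.

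Tests used limma 3.58.1 in R 4.3.3 on log2(RPM + 1) with a trended eBayes fit, two-sided, with Benjamini-Hochberg adjustment over all genes that reached 1 RPM in 3 or more libraries of the comparison. A fold change on this scale understates changes of low genes. The comparisons were the lines with T3 (time as a block), T3 in each line and the difference of these responses (pair as a block, all 12 libraries), and 24 h against 6 h in C17.2a (treatment as a block). The fit was tested on simulated data in which only genes of higher level were changed and no effect of time or pair was put in. That test therefore does not cover genes at low levels or the differences between times seen here. Ratios of single libraries carry 95% exact binomial intervals on implied tags rounded to whole tags (SciPy 1.17.1), which cover counting error only, as does the floor of 3 tags.

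The members and lists were chosen with earlier results of these data known. All 8 members were named throughout, with up to 3 relatives per family by smallest p in the lines with T3, and the 8 genes of highest correlation, of which 1 is not reported here. Relatives that passed in a T3 response, further marker genes and genes next to a member on the chromosome were named after their values were seen. Marker lists of neurons, astrocytes, oligodendrocytes, myeloid and smooth muscle cells are given among the other observations. RefSeq tables of GRCm38.p6 served for symbols, start-site sequence and gene order only.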

Additional observations from a re-analysis of the deposited data

Results flagged for a closer look

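Ogn and Pdgfrl were lower with T3 than without it in all 3 C17.2a pairs and higher in all 3 C17.2b pairs, a pattern that 2.07% of 10577 genes had. The response of each line is measured against the untreated libraries that chose the genes, so it supports nothing by itself. Subtracting the C17.2a response from the C17.2b response gave 0.50 (SE 0.21) for Ogn and 0.74 (SE 0.24) for Pdgfrl on log2(RPM + 1), with an adjusted p of 0.722 in limma for each, so the difference did not pass its test. At 12 h in C17.2a the Ogn values were 99.23 RPM without and 99.22 RPM with T3, and for both genes the largest step in either line was at 24 h.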

How the results depend on the processing

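No direction of a line difference with T3 changed under any alternative. Genes past 0.05 in limma there numbered 1 as reported, 0 with a pseudocount of 5, without a filter or without a time block, 91 with median-ratio scaling (35 higher and 56 lower) and 489 with all 12 libraries, and 0 to 1573 when a time was left out. Genes tested numbered 10159 with median-ratio scaling, 10142 with all 12 libraries and 9808 without the 24 h libraries. Of the 8 members 0 passed as reported, 8 with median-ratio scaling, 8 with all 12 libraries and 0 to 4 when a time was left out. Mfap5, S100a9, Rtn4rl1 and Vsnl1 passed the filter through C17.2a alone, so these counts of members support nothing by themselves. Without the 24 h libraries 1 residual degree of freedom remains, and the cause of the larger count was not tested. For T3 in C17.2a, 145 genes became 28 without the pair block and 32 (C17.2a 6 h) to 462 (C17.2a 24 h) when a pair was left out, with 0 to 1 members. For T3 in C17.2b, 329 became 86 without the pair block and 39 (C17.2b 12 h) to 1178 (C17.2a 24 h) when a pair was left out, and for the difference of responses 0 became 0 to 2. For 24 h against 6 h, 1823 genes (1414 higher and 409 lower) became 1089 (477 and 612) with median-ratio scaling and 380 to 5565 when a library was left out, with 1 and 0 to 5 members.

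The signs that changed were those of members that had not passed as reported. Leaving out a library at 24 h against 6 h left 1 residual degree of freedom and a spread borrowed from other genes, so counts from those fits are not given. In C17.2b Rtn4rl1 was at 0.01 as reported, -0.009 with a pseudocount of 0.5, -0.017 with median-ratio scaling and -0.10 to 0.19 when a pair was left out, where Plb1 ranged from -0.079 to 0.27 and Vsnl1 from -0.19 to 0.15. S100a9 in C17.2a ranged from -1.82 to 0.029. For 24 h against 6 h Wisp2 was at -0.25 with median-ratio scaling, and leaving out a library gave -0.43 to 0.69 for Wisp2, -1.29 to 2.26 for S100a9 and -1.86 to 0.38 for Rtn4rl1. Depth limits Rtn4rl1, S100a9, Mfap5 and Vsnl1 in C17.2b, where single libraries held few tags.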

Other observations

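The nearest protein-coding genes on the chromosome, 2 on each side of each of the 8 genes in RefSeq order, gave 32 places, of which 24 were in the table and 17 could be tested with T3. All C17.2b libraries lay below all C17.2a libraries for 4 of them and above for 2, as they did for 6.26% and 8.44% of all 10142 genes. Ogn lies in a row of proteoglycan genes: Aspn was at a mean of 2.9 RPM in C17.2a and 0.127 RPM in C17.2b with T3, while Omd, between them, was at 6.7 and 8.46 RPM. Nol8, on the other side of Ogn, was at 23.3 and 10.6 RPM with T3. Its untreated means went the other way, at 12.3 RPM in C17.2a and 14 RPM in C17.2b. These neighbours were looked at after the data had been seen. The genes on both sides of Rtn4rl1, Dph1 and Rpa1, were with T3 at means of 12.9 and 92.4 RPM in C17.2a and at 19.2 and 77.9 RPM in C17.2b, against 13.2 and 0.377 RPM for Rtn4rl1 itself.

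Of 9 myeloid markers 3 were in the table, and their sum was 10.94 to 43.03 RPM in C17.2a and 15.3 to 22.79 RPM in C17.2b, while S100a9 was at 5.49 to 73.69 RPM in C17.2a and at 0.32 RPM or less in C17.2b. Smooth muscle markers (3 of 5) summed to 44.39 to 280.18 RPM in C17.2a and 47.61 to 111.82 RPM in C17.2b, nearly all of it Acta2. Neuronal markers (2 of 7) summed to 44.98 to 154.43 and 87.23 to 576.67 RPM, oligodendrocyte markers (4 of 6) to 234.5 to 641.18 and 412.62 to 948.25 RPM, and astrocyte markers (4 of 6) to 37.97 to 60.93 and 46.4 to 60.5 RPM.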
